A study of Mus musculus with 15 samples.

Results

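The effect of repeated cocaine on the thalamic transcriptome was taken here from all cocaine libraries against all saline libraries, without use of the genotype label. Libraries were grouped by their treatment tag, and those with a table of values used here came to 6 cocaine and 8 saline libraries, 14 of the 15 samples of the series. The remaining cocaine sample was not analysed here.

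The mice were adults of 2 to 4 months. They carried a floxed Maged1 gene (labelled Maged1 Loxp or WT, called control here) or the same allele with Cre under the vGluT2 promoter (Maged1 cKO), so that Maged1 is deleted in glutamatergic neurons expressing Vglut2 and kept in the other cells of the tissue. All mice were injected with saline on 3 days and then intraperitoneally with cocaine at 20 mg/kg or with vehicle on 5 days. The whole thalamus was dissected and RNA depleted of ribosomal RNA was sequenced from unsorted tissue. Of the cocaine libraries, 4 were titled control and 2 cKO, and of the saline libraries 4 were titled control and 4 cKO. Libraries are numbered with those titled control first (cocaine 1 to 4 and saline 1 to 4) and those titled cKO after them. For 4 saline libraries the genotype tag named the other genotype. A difference in such bulk tissue can come from fewer cells of a type or from less RNA per cell, and the values cannot tell these apart.

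Cocaine blocks the uptake of dopamine, noradrenaline and serotonin. Its repeated injection alters transcription in many brain regions, among them the thalamus, whose excitatory neurons send glutamatergic input to the striatum and cortex and express Slc17a6, the gene of Vglut2. Neurons that have fired express immediate early genes such as Fos and Egr1 for a short time, and injection stress and glucocorticoids raise Per1, the metallothioneins and other genes in brain.

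Expression is given as TPM (an abundance per transcript, corrected for transcript length and for the library total, made by the authors) divided by the TMM factor of the library, called scaled TPM below. Fold changes are differences of log2(scaled TPM + 0.5), cocaine minus saline, so that changes of genes with low values are understated. Of 25080 listed genes, 13471 had at least 1 TPM in at least 3 libraries and were tested with limma. A gene could pass this filter through the libraries of 1 group alone, as did genes listed at 0 in the whole other group. Genes were called at a Benjamini-Hochberg adjusted p under 0.05 and a log2 fold change of at least 0.5 in size. TPM keeps no read depth, so the counting error behind each value is unknown.

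Maged1 (ENSMUSG00000025151.16, chromosome X from 94535474 to 94542143, minus strand), the deleted gene, was read first as a check of the labels. In the saline libraries scaled TPM was 150.0 to 166.0 where the title said control and 64.5 to 78.0 where it said cKO. In the cocaine libraries the order was the opposite, with 58.5, 87.9, 77.3 and 71.3 in the libraries titled control and 152.0 and 174.0 in those titled cKO. The genotype titles of the cocaine libraries therefore went against Maged1, which is why the treatment groups were compared with the genotypes pooled. Both treatment groups held libraries with high and with low Maged1, and the groups overlapped. Maged1 did not pass the test (log2 fold change -0.14 ± 0.30 SE, adjusted p = 0.755, limma). The pooled groups were not balanced, since more cocaine libraries had low than high Maged1 and the saline libraries were evenly split. With a separate mean for each treatment and title, the titles weighted equally, 141 genes were called higher and 138 lower.

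Cocaine libraries differed from saline libraries in their composition. The 6 listed genes of abundant short RNAs (Bc1, Gm20594, Rn4.5s, Rmrp, Rpph1 and Terc) held 16.9% to 19.5% of the TPM sum in saline libraries, with a median of 18.4%, and 34.7% to 40.4% in cocaine libraries, with a median of 37.2%. Gm20594, kept in this list, is annotated as protein-coding in GENCODE M21. The TMM factors ran from 0.807 to 0.947 in cocaine and from 1.07 to 1.21 in saline libraries. Neither measure overlapped between the groups (exact two-sided permutation test over the libraries, p = 0.000666 for each, adjusted p = 0.00117 over 7 measures, the smallest p that 6 against 8 libraries allow). The short RNA list was chosen with earlier results of these data known, so the test of its share is a description. With TPM as deposited, without this scaling, the median log2 fold change of all tested genes was -0.34, against 0.01 with it, and 54 genes were called higher and 2352 lower. All changes below are relative to the scaled bulk of genes. With TPM as deposited 19 of the 64 named genes lost their call, each with a log2 fold change that was still on the same side, and gene list medians there have to be read against the shift of -0.34.

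**Figure D1:**
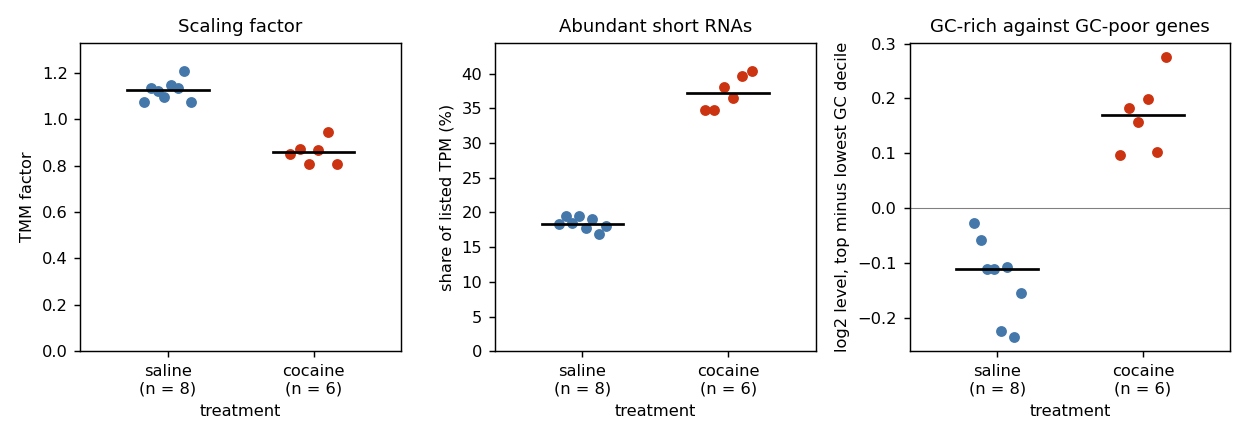
TMM scaling factor, share of the listed TPM in 6 abundant short RNA genes (%) and the log2 level of the most GC-rich minus the least GC-rich decile of genes, for 8 saline and 6 cocaine libraries. Points are libraries and bars are medians. In each panel every cocaine library lies on one side of every saline library.

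Repeated cocaine was accompanied by 144 genes called higher (1.07% of the tested genes) and 136 called lower (1.01%). Most changes were small, with 76 of the rises and 78 of the falls under 0.75 on the log2 scale, and 25 rises and 15 falls of 2 or more. At an adjusted p under 0.05 of any fold, 2291 genes were higher (17.0%) and 1907 lower (14.2%). For 91 of the called rises every cocaine library lay above every saline library, and for 72 of the called falls every cocaine library lay below, whereas over all tested genes 777 (5.77%) and 656 (4.87%) were separated in this way. Protein-coding genes made up 101 of the rises and 65 of the falls among 12454 tested. Genes with a longest transcript under 500 bases were called more often than the others (22.0% of 273 against 1.51%).

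The calls were compared between the genotype titles. Of the 280 called genes, 272 had the same sign in the libraries titled control and in those titled cKO, and 8 did not. The 280 were chosen on these same libraries, so that a shared sign is in part built in and is given as a description. Among the libraries titled control alone, 102 of the 144 rises and 88 of the 136 falls were called again, and 96 and 80 among those titled cKO. The interaction of treatment and title passed the adjusted test in 182 of the 13471 tested genes and in 3 of the 280 called genes, Avp, B3gnt4 and Snora5c. The cocaine titles go against Maged1 and the saline titles go with it. Read by Maged1, this interaction is the difference between libraries with high and low Maged1, added over both treatments. It cannot be told from a different response to cocaine. With only the libraries whose title and tag named the same genotype, 139 genes were called higher and 105 lower.

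**Figure D2:**
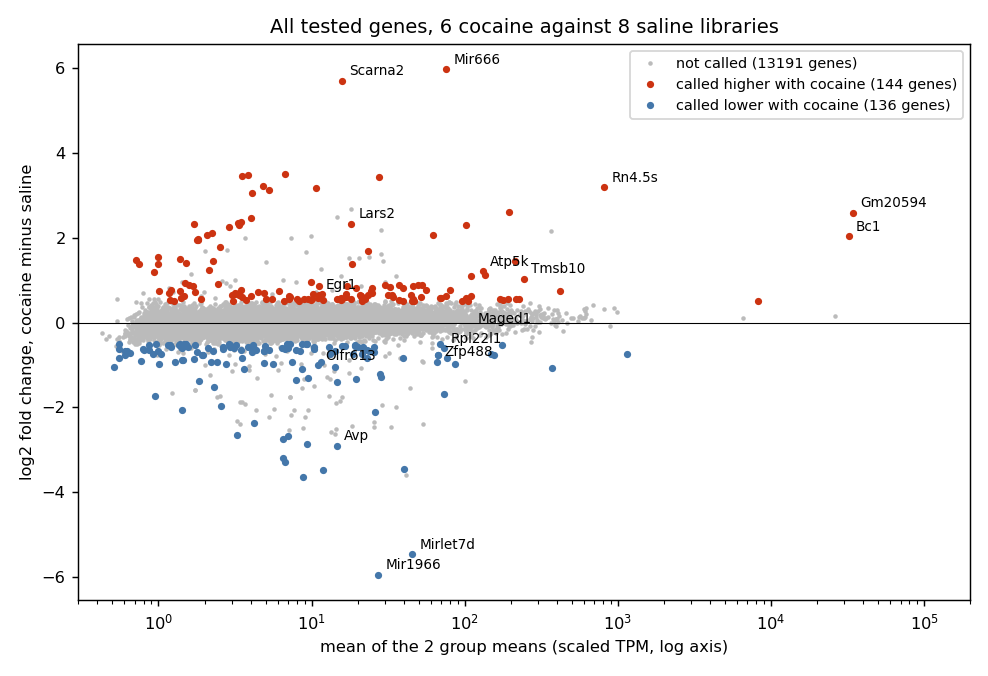
Log2 fold change of cocaine minus saline against the mean of both group means (scaled TPM, log axis) for the 13471 tested genes. Red points are the 144 genes called higher and blue points the 136 called lower. Most rises and falls lie below 1 on the log2 scale, and the largest in both directions are short noncoding RNAs.

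The largest changes were in short noncoding RNA genes. Of the short genes that changed, Bc1, the brain cytoplasmic RNA that regulates translation in dendrites, and Gm20594, annotated as protein-coding, were the most abundant. Bc1 (chromosome 7 from 144914470 to 144914637) ranged from 38400 to 62000 scaled TPM in cocaine libraries, with a median of 50800, and from 10500 to 14700 in saline libraries, with a median of 12400. It rose 4.10-fold (log2 fold change 2.04 ± 0.11 SE, adjusted p = 2.28e-08, limma) with no overlap. Under quantile scaling, which fixes the values of the highest ranks, its log2 fold change was 0.30 and was not called. Of the 31-base words of Bc1 40.6% also occur in transcripts of other genes, mainly Lrrc17.

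Gm20594 (chromosome 6 from 79817916 to 79818364) ranged from 40000 to 71800 scaled TPM after cocaine, median 61300, and from 6830 to 12800 after saline, median 9500. It rose 5.99-fold (adjusted p = 4.61e-08, limma). Of the 21-base words in its transcript, 17.9% also occur in mt-Rnr2, the mitochondrial 16S ribosomal RNA, so its reads may belong to either. No symbol of a mitochondrially encoded gene was among the listed genes, and Rn45s, the precursor of the cytosolic ribosomal RNAs, did not pass the test (6031 to 7255 scaled TPM after cocaine and 5397 to 8228 after saline, adjusted p = 0.352).

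Rn4.5s, a small RNA of rodents, was 990.0 to 1750 scaled TPM after cocaine, median 1550, and 108 to 205 after saline, median 159, a 9.10-fold rise (adjusted p = 4.57e-09, limma). Rmrp, the RNA of the RNase MRP that processes ribosomal RNA, was 7930 to 11900 after cocaine and 5680 to 7560 after saline, a 1.42-fold rise whose sign turned under quantile scaling. Its partner in structure Rpph1, the RNA of RNase P, had a log2 fold change of 0.15 (adjusted p = 0.074), and Terc, the telomerase RNA, one of -0.40 (adjusted p = 0.136). Thus 4 of 6 tested genes of this list, Gm20594 included, rose and none fell. Over all tested genes 1.07% were called higher and 1.01% lower. The median log2 fold change of the list was 1.27, against 0.01 over all tested genes.

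Small nucleolar and Cajal body RNAs guide the modification of ribosomal and spliceosomal RNA. Of 57 tested genes of this class, 14 were called higher and 8 lower, and the median log2 fold change was -0.37. Over all tested genes 1.07% were called higher and 1.01% lower, and of those under 500 bases 22.0% were called. Scarna2 was listed at 0 in all 8 saline libraries and lay between 11.1 and 63.5 scaled TPM in the 6 cocaine libraries, median 26.2 (adjusted p = 6.25e-08, limma). It passed the filter for testing through the cocaine libraries alone, as did Scarna10, Snord33, Snord88c, Snord92 and Snord104 among the rises. The calls of these genes are given as a description. Snora68, an H/ACA guide RNA, was 92.4 to 693 after cocaine, median 295, and 13.8 to 84.7 after saline, median 47.6, a 6.06-fold rise (adjusted p = 0.0014). All 31-base words of Snora68 also occur in transcripts of other genes, so that its reads cannot be told from theirs.

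In the other direction, Snora30 fell 3.22-fold, from 78.7 to 141 scaled TPM after saline, median 105, to between 12.4 and 73.0 after cocaine, median 35.0 (adjusted p = 0.00194, limma), with no overlap. Snora41, Snora15 and Snora75 were also called lower, but each was listed at 0 in 4 or 5 of the 6 cocaine libraries and their groups overlapped. Snora5c, called higher, was 24.8 to 159 scaled TPM in the cocaine libraries titled control, listed at 0 in both titled cKO and at most 2.89 in saline libraries. Snord88c was 0 in the 8 saline libraries and in 2 of the cocaine libraries, with up to 17.4 scaled TPM in the other 4, and Snord14d was 7.46 to 27.1 after cocaine and 0 to 25.8 after saline, where 1 library stood near the cocaine values.

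MicroRNA genes moved in both directions. These libraries of total RNA with paired 100-base reads are not made to capture mature miRNAs, so that the values stand for reads over the hairpin and its surroundings. Of 150 tested miRNA genes, 12 were called higher and 13 lower, with a median log2 fold change of -0.38. Over all tested genes 1.07% were called higher and 1.01% lower, and of those under 500 bases 22.0% were called. The rises other than Mir337 and Mir666 were listed at 0 in every saline library. They passed the filter for testing through the cocaine libraries alone. Of the falls, Mir1969, Mir3473g and Mir8095 were at 0 in every cocaine library. Mature sequences of the miRNAs the results turn on are given 5′ to 3′ from RefSeq (GRCm38.p6), with the seed, bases 2 to 8, in capitals. Those of miR-666, miR-654, miR-3072, miR-453 and miR-1188 are shown because their genes lie together in the imprinted Dlk1-Dio3 interval of chromosome 12, and those of miR-1966 and let-7d because their genes fell the most.
mmu-miR-666-5p: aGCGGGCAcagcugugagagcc
mmu-miR-666-3p: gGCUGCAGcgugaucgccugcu
mmu-miR-654-5p: uGGUAAGCugcagaacaugugu
mmu-miR-654-3p: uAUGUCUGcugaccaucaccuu
mmu-miR-3072-5p: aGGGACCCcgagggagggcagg
mmu-miR-3072-3p: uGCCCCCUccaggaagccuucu
mmu-miR-453: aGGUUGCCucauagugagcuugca
mmu-miR-1188-5p: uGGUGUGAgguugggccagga
mmu-miR-1188-3p: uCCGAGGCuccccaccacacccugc
mmu-miR-1966-3p: uUUCUGACucaacucucccuuag
mmu-let-7d-5p: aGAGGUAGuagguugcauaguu
mmu-let-7d-3p: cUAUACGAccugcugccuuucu
No 2 of these 12 mature miRNAs shared a seed. The seed GAGGUAG of let-7d-5p is that of the let-7 family, a set of miRNAs abundant in mature neurons.

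Mir666 (chromosome 12 from 109717085 to 109717183) had the largest rise of all called genes. It ranged from 107 to 211 scaled TPM after cocaine, median 137, and from 1.29 to 2.86 after saline, median 1.86, a 62.4-fold difference (log2 fold change 5.96 ± 0.15 SE, adjusted p = 4.07e-12, limma). It was separated in both genotype titles, with log2 fold changes of 5.79 in control and 6.26 in cKO libraries.

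Among the 19 tested miRNA genes between Dlk1 and Dio3 (chromosome 12 from 109452823 to 110281097), 7 were called higher and 3 lower, and 12 had a positive fold change. Over all tested genes under 500 bases, 22.0% were called. Mir654 and Mir3072 were listed at 0 in all saline libraries and reached 10.1 and 16.5 scaled TPM after cocaine, each with 1 cocaine library at 0. Mir453, Mir376c and Mir494, all called higher, were likewise at 0 in all saline libraries and in 2 of the cocaine libraries. These genes at 0 after saline passed the filter for testing through the cocaine libraries alone, so their calls are given as a description. Mir1188, inside the noncoding gene Rian, fell in the same interval, from 131 to 238 scaled TPM after saline, median 189, to between 84.9 and 124 after cocaine, median 116 (1.68-fold lower, adjusted p = 0.00021). The long noncoding genes of the interval did not pass the test. Log2 fold changes were 0.01 for Meg3 (adjusted p = 0.956), -0.08 for Rian (adjusted p = 0.234) and 0.11 for Mirg (adjusted p = 0.491).

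Mir1966 (chromosome 8 from 105615466 to 105615573, inside Ripor1) was 22.9 to 78.8 scaled TPM in the saline libraries, median 59.5, and was listed at 0 in all but 1 of the cocaine libraries, which had 8.81. Mirlet7d (chromosome 13 from 48536012 to 48536114) was 26.7 to 141 after saline, median 76.8, and at 0 in 4 of 6 cocaine libraries, the highest of which had 22.8. Neither overlapped between the groups (adjusted p = 6.55e-06 and 0.000483, limma). All 31-base words of the let-7d hairpin gene also occur in 6720427I07Rik, a longer transcript over the same place. Outside these, Mir6387 and Mir3062 were called lower with groups that overlapped.

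The short pseudogene Gm12191 was 3.47 to 5.98 scaled TPM after saline, median 4.41, and 1.08 to 3.45 after cocaine, median 2.46, and shares all its 31-base words with other genes, mainly Rpl30-ps9.

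Short genes were compared with the longer genes around them. Of the 60 called genes under 500 bases, 35 lie inside a tested gene on the same strand, and none of these hosts was called in the same direction, where 1.07% and 1.01% of all tested genes were called higher and lower. In 24 of the 35 pairs the host had the same sign as the short gene. Host log2 fold changes ran from -0.93 to 0.28, 34 hosts were not called, and Strbp, the host of Mir5128, was called lower while Mir5128 was called higher. In 35 of the 60 short genes at least 1 library was listed at 0. A transcript shorter than the sequenced fragments gets its TPM from few reads, so that a value of 0 here does not show that the RNA was absent.

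Among called genes with a transcript of at least 500 bases the largest rise was in Lars2, the mitochondrial leucyl-tRNA synthetase (chromosome 9 from 123366927 to 123462666). It lay between 4.30 and 5.04 scaled TPM in saline libraries and at 5.57, 29.3, 32.6, 42.6, 18.6 and 59.9 in the cocaine libraries, a 5.00-fold rise (log2 fold change 2.32 ± 0.37 SE, adjusted p = 0.000294, limma). The spread among cocaine libraries was wide, with 1 library just above the saline range. Of its 31-base words 1.09% occur in other genes, mainly AA474408.

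Atp5k, subunit e of the ATP synthase (chromosome 5 from 108433244 to 108434448), was 158 to 210.0 scaled TPM after cocaine, median 191, and 71.4 to 89.4 after saline, median 78.8. It rose 2.30-fold (log2 fold change 1.20 ± 0.07 SE, adjusted p = 4.61e-08, limma). Cox6a2, the striated muscle form of a cytochrome oxidase subunit, was 17.5 to 29.6 after cocaine, median 21, and 9.57 to 13.5 after saline, median 11.5, a 1.82-fold rise (adjusted p = 4.1e-05). Neither gene overlapped between the groups.

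Tmsb10, a thymosin that binds actin monomers, was 298 to 396 scaled TPM after cocaine, median 314, and 136 to 177 after saline, median 163, a 2.04-fold rise (adjusted p = 3.02e-07, limma). Of its 31-base words 52.4% occur in other genes, mostly pseudogenes such as Gm9844, among which reads may have been split. Arpc3, a subunit of the Arp2/3 complex that branches actin filaments, was 42.4 to 52.9 after cocaine and 27.1 to 36.8 after saline, a 1.43-fold rise. The call of Arpc3 was lost without cocaine 4 or without saline 1 (log2 fold change 0.48 for each). These were the 2 called members of 23 tested actin genes, where 1.07% of all tested genes were called higher. By the adjusted p alone 17.0% of all tested genes were higher and 14.2% lower. At the adjusted p alone 7 members were higher, among them Actb, Cfl1 and Pfn1, and 6 were lower, among them Pfn2, Actr2 and Actr3, and the median was -0.03.

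Chgb, chromogranin B of secretory granules, was 60.2 to 77.6 scaled TPM after cocaine, median 68.4, and 34.1 to 40.3 after saline, median 36.2, a 1.86-fold rise (adjusted p = 2.01e-07, limma). Of 11 tested genes of peptide hormone processing it was the only one called, although Chga and Scg3 were also higher by the adjusted p alone (log2 fold changes 0.46 and 0.28). Prrt1, a partner of AMPA receptors, was 32.9 to 45.4 after cocaine, median 38.4, and 18.7 to 22.3 after saline, median 21.1, a 1.85-fold rise (adjusted p = 2.21e-07). Stmn4, a stathmin that binds tubulin, rose 1.42-fold and was the 1 called member of 26 tubulin and microtubule genes. By the adjusted p alone 13 of these genes were higher and 1 lower. Over all tested genes 17.0% were higher and 14.2% lower in this way, and 1.07% were called higher. The median GC content of the tubulin list was 53.2%, against 49.7% for all tested genes. The call of Stmn4 was lost without any one of cocaine 3 or 4 or saline 1, 2, 3 or 4 (log2 fold changes from 0.47 to 0.50) and under median-of-ratios and quantile scaling (0.50 and 0.42).

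Hypk, a partner of the N-terminal acetyltransferase, was 17.2 to 32.3 scaled TPM after cocaine, median 28.2, and 7.78 to 12.5 after saline, median 9.33, a 2.60-fold rise (adjusted p = 5.99e-06, limma). Its annotated transcripts overlap Serf2 on the same strand and share 39.0% of their 31-base words with other genes. Llph rose 1.94-fold, from 5.41 to 7.87 after saline, median 6.51, to between 11.3 and 15, median 13.4. Of the 31-base words of Llph 28.5% occur in other genes, mainly Llph-ps2. Fkbp2, a prolyl isomerase of the endoplasmic reticulum, rose 1.84-fold, from 30.9 to 38.0 after saline, median 34.2, to between 49.5 and 73.7, median 65.3.

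Sf3a2, a subunit of the U2 small nuclear ribonucleoprotein, was 12.7 to 15.6 scaled TPM after cocaine, median 15, and 7.09 to 9.09 after saline, median 7.76, a 1.82-fold rise (adjusted p = 2.4e-07, limma). Pnn, pinin, which takes part in splicing, was 13.3 to 14.6 after cocaine, median 14.1, and 9.15 to 10.1 after saline, median 9.66, a 1.45-fold rise (adjusted p = 5.25e-08). For both, the lowest cocaine library was above the highest saline library.

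The smallest adjusted p of a longer gene was that of Ccdc124, at 4.57e-09. It was 48.0 to 54.0 scaled TPM after cocaine, median 50.2, and 26.8 to 31.3 after saline, median 28.8, a 1.74-fold rise with an SE of 0.04 on the log2 scale. Edf1, a transcription coactivator that also binds collided ribosomes, was 86.4 to 98.6 after cocaine, median 90.7, and 57.6 to 62.6 after saline, median 59.1. Clip3, a protein of the trans-Golgi network, was 122 to 145 after cocaine, median 134, and 80.8 to 89.9 after saline, median 85.6. Both rises were of about the same size, 1.54-fold for Edf1 and 1.55-fold for Clip3.

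**Figure D3:**
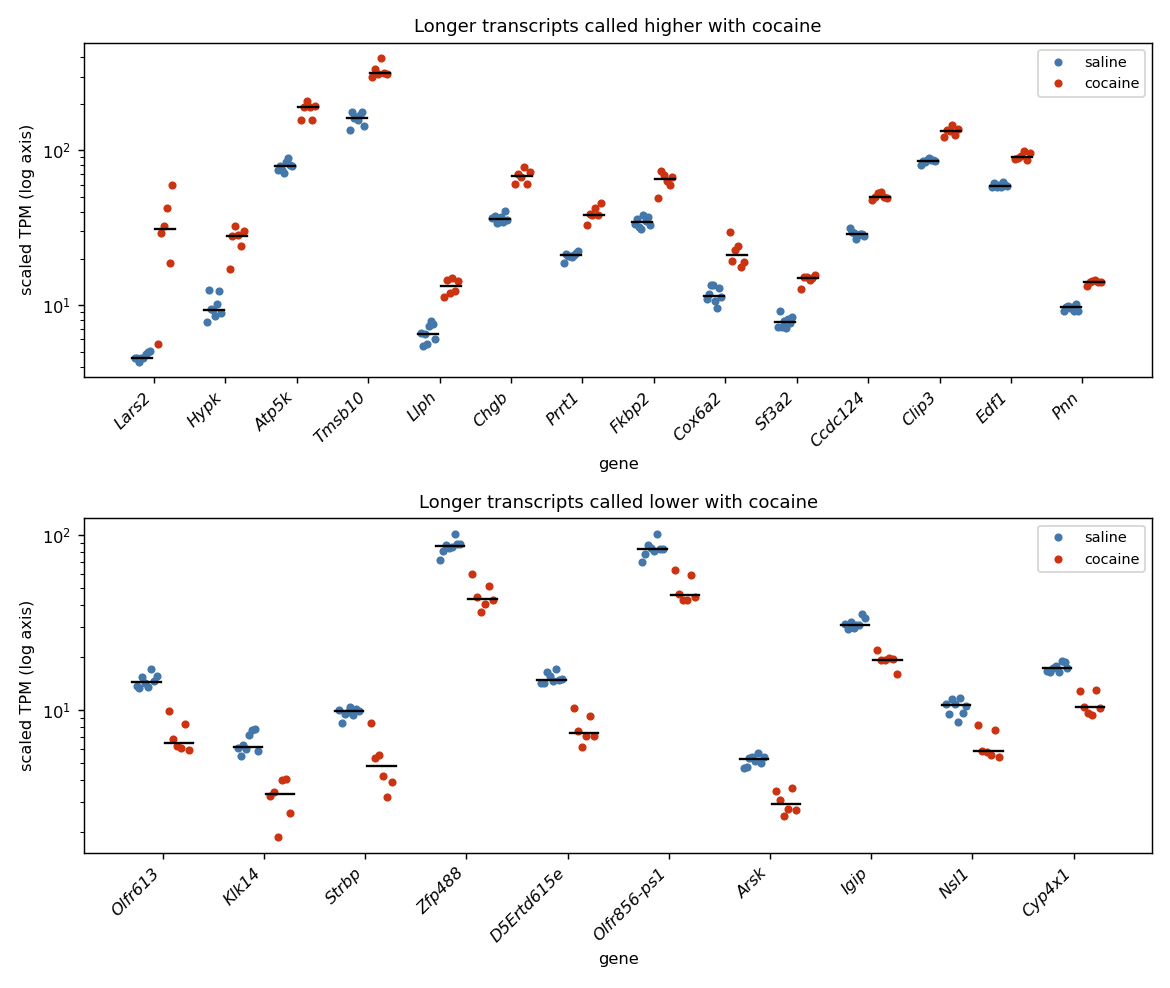
Scaled TPM (log axis) in each of 8 saline and 6 cocaine libraries for the longer transcripts with the largest or most certain rises (top) and falls (bottom). Points are libraries and bars are medians. All cocaine libraries lie above all saline libraries in the top panel and below them in the bottom panel, and Lars2 has the widest spread.

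Among longer transcripts with at least 5 TPM and no overlap, Olfr613, an odorant receptor gene, fell most (chromosome 7 from 103548074 to 103555506). It was 13.4 to 17.1 scaled TPM after saline, median 14.4, and 5.93 to 9.89 after cocaine, median 6.50 (2.00-fold lower, log2 fold change -1.0 ± 0.10 SE, adjusted p = 6.95e-06, limma). Olfr856-ps1, an odorant receptor pseudogene, was 70.4 to 101 after saline, median 83.0, and 42.3 to 63.0 after cocaine, median 45.3 (1.69-fold lower, adjusted p = 5.4e-05). Odorant receptors are known for nasal sensory neurons, and their level here is that of reads over the annotated transcripts in thalamus. Of the words of Olfr613 6.17% occur in other genes.

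Zfp488, a zinc finger factor of the oligodendrocyte lineage (chromosome 14 from 33967070 to 33978764), was 71.7 to 102 scaled TPM after saline, median 86.9, and 36.4 to 59.6 after cocaine, median 43.2 (1.89-fold lower, log2 fold change -0.92 ± 0.10 SE, adjusted p = 1.09e-05, limma). It was the only called member of 9 tested markers of oligodendrocyte precursors and maturing cells. Cspg4 and Gpr17 were higher by the adjusted p alone (log2 fold changes 0.18 and 0.36), and Pdgfra, Olig1 and Olig2 did not pass. Of its 31-base words 18.2% occur in transcripts of other genes.

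Strbp, an RNA-binding protein of spermatids and brain, was 8.46 to 10.4 scaled TPM after saline, median 9.84, and 3.19 to 8.38 after cocaine, median 4.77, so that the nearest libraries of the groups almost met (1.90-fold lower, adjusted p = 0.000274, limma). D5Ertd615e was 14.2 to 17.1 after saline, median 14.9, and 6.19 to 10.3 after cocaine, median 7.36 (1.89-fold lower). Klk14, a kallikrein protease, was 5.47 to 7.79 after saline, median 6.17, and 1.87 to 4.05 after cocaine, median 3.31 (1.94-fold lower).

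Smaller falls without overlap were seen in genes of metabolism and other functions. Arsk, a lysosomal arylsulfatase, was 4.64 to 5.71 scaled TPM after saline, median 5.22, and 2.47 to 3.58 after cocaine, median 2.89 (1.63-fold lower, adjusted p = 8.68e-06, limma). Igip, a secreted peptide known to induce IgA, was 29.1 to 35.3 after saline, median 30.8, and 16.1 to 21.9 after cocaine, median 19.4 (1.61-fold lower, adjusted p = 2.66e-06). Cyp4x1, a cytochrome P450 of brain, was 16.6 to 19.0 after saline, median 17.5, and 9.42 to 13.0 after cocaine, median 10.4 (1.59-fold lower). Nsl1, a subunit of the MIS12 kinetochore complex, was 8.56 to 11.7 after saline, median 10.7, and 5.36 to 8.22 after cocaine, median 5.81 (1.59-fold lower).

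Among 15 tested immediate early genes 2 were called, both higher, where 1.07% of all tested genes were called higher. Egr1, a zinc finger transcription factor (chromosome 18), was 12.3 to 17.5 scaled TPM after cocaine, median 13.2, and 7.42 to 9.93 after saline, median 8.39, a 1.57-fold rise with no overlap (log2 fold change 0.66 ± 0.08 SE, adjusted p = 2.21e-05, limma). Fos, a subunit of AP-1 (chromosome 12 from 85473890 to 85477273), was 3.51 to 8.43 after cocaine, median 5.94, and 1.55 to 5.46 after saline, median 3.72, a 1.61-fold rise with overlapping groups (adjusted p = 0.0348). Its log2 fold change was 0.25 in libraries titled control and 1.27 in those titled cKO. The interaction with title did not pass the test (adjusted p = 0.215, limma). The call for Fos was lost without any one of cocaine 3, 4, 5 or 6 or of saline 1 or 5, with log2 fold changes from 0.59 to 0.70 and an adjusted p above 0.05.

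Dusp1 and Nr4a1 were also higher by the adjusted p alone (log2 fold changes 0.34 and 0.35), and no member was lower. Arc, Junb and Npas4 did not pass, with log2 fold changes of 0.15, 0.07 and 0.29. The median of the list was 0.22. Of 13 later activity-regulated genes, among them Bdnf, Homer1 and Vgf, none was called, and Dusp6 was higher by the adjusted p alone.

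Genes known to respond to glucocorticoids gave 4 rises among 16 tested, 7 higher and none lower by the adjusted p alone, and a median of 0.33, where 1.07% and 17.0% of all tested genes were higher by these rules. All 4 calls, Mt1, Mt2, Per1 and Plin4, were lost with TPM as deposited and with GC content and length trends removed, where the log2 fold changes were 0.48, 0.49, 0.44 and 0.64. Mt1, a metallothionein that binds zinc and copper (chromosome 8), was 210.0 to 238 scaled TPM after cocaine, median 228, and 145 to 169 after saline, median 153, a 1.46-fold rise (log2 fold change 0.55 ± 0.04 SE, adjusted p = 2.55e-07, limma). Its neighbour Mt2 was 101 to 136 after cocaine, median 127, and 74.0 to 91.2 after saline, median 82.0, a 1.5-fold rise (adjusted p = 2.58e-05). Neither overlapped between the groups.

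Plin4, a lipid droplet protein, was 0.647 to 2.95 after cocaine, median 1.75, and 0.205 to 1.05 after saline, median 0.786, with groups that overlapped (adjusted p = 0.0228). Its call was lost without cocaine 4, 5 or 6, at log2 fold changes from 0.61 to 0.71. Ddit4, an inhibitor of mTOR signalling, and Nfkbia, the inhibitor of NF-κB, were higher by the adjusted p alone (log2 fold changes 0.47 and 0.39). Other members of the list did not pass, with log2 fold changes of 0.10 for Fkbp5 (adjusted p = 0.287), 0.05 for Tsc22d3 (adjusted p = 0.48) and 0.43 for Sgk1 (adjusted p = 0.0747).

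The circadian clock runs on a loop in which Clock and Arntl drive the Per and Cry genes, whose proteins then repress them. Per1, which is both a clock gene and a target of glucocorticoids and neuronal activity (chromosome 11 from 69095217 to 69109960), was 15 to 22.2 scaled TPM after cocaine, median 17.8, and 10 to 14.1 after saline, median 12.4, a 1.49-fold rise (adjusted p = 0.000276, limma) with no overlap. It was the only called gene of 16 in the loop and its outputs, where 1.07% of all tested genes were called higher. With no fold minimum 7 were higher, including Per2, Nr1d1, Npas2 and Dbp (log2 fold changes 0.40, 0.50, 0.32 and 0.32). The 2 lower genes were Clock (-0.18) and Nr1d2 (-0.23). Over all tested genes 17.0% were higher and 14.2% lower in this way. With GC content and length trends removed, the values were 0.30 for Per2, 0.38 for Nr1d1, 0.24 for Npas2 and 0.18 for Dbp. Those of Clock and Nr1d2 were then -0.04 and -0.12. Arntl, Cry1 and Per3 did not pass. The time of day of dissection was not given per library.

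Promoters of 4 of these risen genes, from 250 bases before to 50 bases after the start, are printed from RefSeq (GRCm38.p6) to show which known response elements lie there. Capitals mark matches on either strand to the E-box CACGTG, which Clock and Arntl bind, and to the half-site TGACG of the cyclic AMP response element. They also mark TGCGCNC, a form of the core of the metal response element, called the metal element core below. The form TGCACNC was not searched, marked or counted.
Fos, chr12:85473640-85473939 (+): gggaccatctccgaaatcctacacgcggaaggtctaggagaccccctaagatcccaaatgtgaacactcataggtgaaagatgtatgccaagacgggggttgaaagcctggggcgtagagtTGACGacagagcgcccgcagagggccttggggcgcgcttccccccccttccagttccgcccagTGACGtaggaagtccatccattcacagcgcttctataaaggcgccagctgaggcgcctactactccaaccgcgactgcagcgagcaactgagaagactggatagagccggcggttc
Per1, chr11:69098699-69098998 (+): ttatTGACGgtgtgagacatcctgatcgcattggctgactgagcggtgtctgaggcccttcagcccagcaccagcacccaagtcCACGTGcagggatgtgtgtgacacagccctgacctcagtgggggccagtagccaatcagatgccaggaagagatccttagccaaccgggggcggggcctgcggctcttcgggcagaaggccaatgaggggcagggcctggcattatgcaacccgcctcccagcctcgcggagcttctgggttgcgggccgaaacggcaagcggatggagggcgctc
Mt1, chr8:94178839-94179138 (+): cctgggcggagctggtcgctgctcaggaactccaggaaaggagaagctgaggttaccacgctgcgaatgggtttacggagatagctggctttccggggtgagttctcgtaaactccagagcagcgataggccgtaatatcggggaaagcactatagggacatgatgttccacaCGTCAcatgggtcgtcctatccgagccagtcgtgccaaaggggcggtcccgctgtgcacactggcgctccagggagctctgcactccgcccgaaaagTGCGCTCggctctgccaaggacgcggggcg
Mt2, chr8:94172368-94172667 (+): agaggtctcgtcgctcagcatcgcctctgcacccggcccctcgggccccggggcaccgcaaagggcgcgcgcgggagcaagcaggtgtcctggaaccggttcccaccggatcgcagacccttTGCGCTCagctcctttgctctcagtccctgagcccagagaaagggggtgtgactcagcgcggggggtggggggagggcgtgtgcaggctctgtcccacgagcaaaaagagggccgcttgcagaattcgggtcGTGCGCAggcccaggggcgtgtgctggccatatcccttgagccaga
The Fos window held 2 half-sites, that of Per1 an E-box and a half-site, that of Mt1 a half-site and a metal element core, and that of Mt2 2 metal element cores. No window held the whole element TGACGTCA. The window of Plin4 was scanned too, held no match to any of these elements and is not printed. Of 27025 promoters of the same length, 7.24% held an E-box, 21% the half-site, 15.5% the metal element core and 1.88% the whole cyclic AMP element. A match is a description of the letters in this window.

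**Figure D4:**
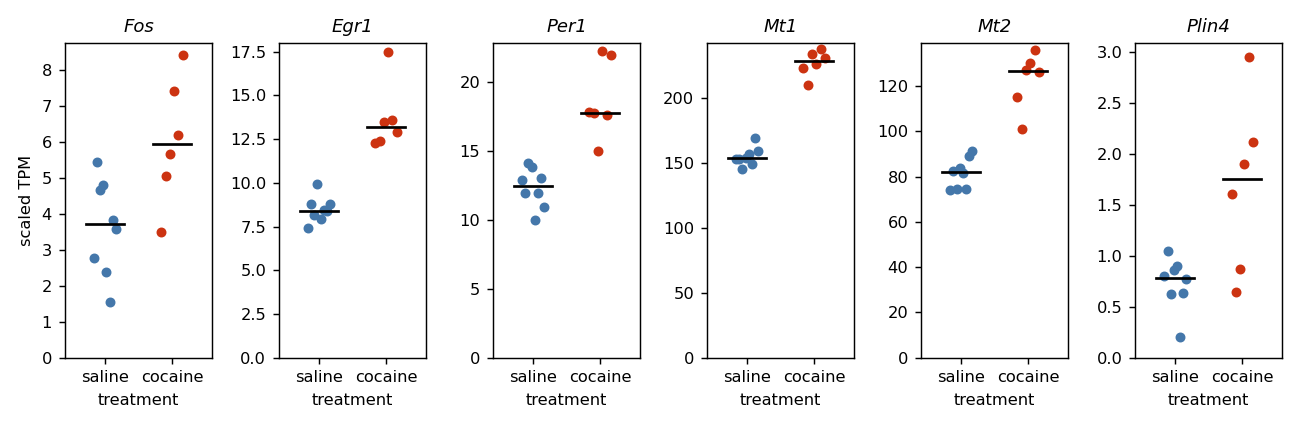
Scaled TPM (linear axes from 0) of Fos, Egr1, Per1, Mt1, Mt2 and Plin4 in 8 saline and 6 cocaine libraries. Points are libraries and bars are medians. Egr1, Per1, Mt1 and Mt2 do not overlap between the groups, and Fos and Plin4 do.

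The tissue was checked against markers of the thalamus and of the cells around it. Slc17a6, which marks thalamic glutamatergic neurons, was 69.8 to 93.6 scaled TPM after cocaine and 68.9 to 104 after saline (log2 fold change -0.04, adjusted p = 0.798, limma). Of 12 thalamic neuron markers none was called. At the adjusted p alone 5 were higher, Tcf7l2, Lef1, Synpo2, Grid2ip and Rgs16 (log2 fold changes from 0.30 to 0.49), where 17.0% of all tested genes were. The summed level of the list was 681 to 893 scaled TPM after cocaine and 570.0 to 785 after saline. Its median was 0.31, and its part in the other results was not tested.

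Markers of most other cell types gave no call. No member was called among 13 oligodendrocyte, 11 astrocyte, 12 microglia, 10 endothelial, 7 mural, 11 ependymal, 4 choroid plexus, 9 habenula, 9 striatum and 5 cortex and hippocampus markers tested, nor among 8 of GABAergic and reticular neurons. Their list medians lay between -0.10 and 0.26 except that of choroid plexus, at -0.38. Summed oligodendrocyte markers were 1722 to 2679 scaled TPM after cocaine and 1545 to 2710 after saline, and microglia markers 110.0 to 129 and 112 to 129.

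Marker sums of neighbouring tissues had wide ranges. Choroid plexus markers summed to 6.08 to 1461 scaled TPM in saline libraries, with 1 library far above the median of 19.3, and to 7.76 to 26.6 in cocaine libraries. Habenula markers summed to 8.95 to 183 after cocaine and 10 to 83.8 after saline. All 12 tested hypothalamus markers had a negative fold change, with a median of -0.48, and summed to 12.9 to 144 scaled TPM after cocaine and 26.7 to 527 after saline.

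Avp, the hypothalamic hormone vasopressin, was the 1 called member of that list. It was 0.467 to 4.08 after cocaine, median 0.919, and 0.759 to 73.6 after saline, median 13.7, and the groups overlapped (log2 fold change -2.90 ± 0.88 SE, adjusted p = 0.0206, limma). The log2 fold change was -5.07 in libraries titled control and -0.40 in those titled cKO, and the difference between these passed the test (adjusted p = 0.0488). Because the cocaine titles go against Maged1, it cannot be told from a difference between libraries with high and low Maged1. Oxt, oxytocin, was 0 to 52.8 after cocaine and 0.578 to 182 after saline (adjusted p = 0.0717). The part of dissection in these values was not tested.

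Genes of transmitter signalling gave no call. None of 17 dopamine and monoamine signalling genes was called. Maoa, which oxidises monoamines, was lower by the adjusted p alone (log2 fold change -0.20), and Drd1, Drd2 and Htr2c did not pass. Of 24 glutamate receptor genes none was called, with 4 higher and 4 lower by the adjusted p alone and a median of 0.00. Over all tested genes 17.0% were higher and 14.2% lower in this way.

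Of 16 GABA-A and glycine receptor genes none was called, 6 were lower by the adjusted p alone, none was higher and 14 had a negative fold change, with a median of -0.15. Among these were Gabrb1, Gabrg1, Gabrg3 and Glra3, with log2 fold changes from -0.37 to -0.25. The median GC content of the list's transcripts was 41.6%, against 49.7% for all tested genes. Gabra4 and Gabrb2, subunits of the receptors of thalamic relay neurons, did not pass. Of 25 large synaptic adhesion genes 5 were higher and 6 lower by the adjusted p alone and none called. Over all tested genes 17.0% were higher and 14.2% lower in this way.

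Maged1 is studied as a partner of Usp7 in the control of histone H2A ubiquitination, so these genes were examined. Usp7, the deubiquitinase that acts on histone H2A (chromosome 16), was 18.4 to 19.4 scaled TPM after cocaine, median 18.7, and 18.3 to 20.7 after saline, median 19.7 (log2 fold change -0.06 ± 0.03 SE, adjusted p = 0.124, limma). Of 10 tested H2A deubiquitinase genes none was called, with Usp21 higher (0.16) and Mysm1 lower (-0.28) by the adjusted p alone. Of 28 polycomb genes none was called. By the adjusted p alone 6 were higher, among them Cbx8, Phc1 and Ring1 (log2 fold changes from 0.23 to 0.24), and 8 were lower, among them Bmi1, Pcgf5, Mtf2 and the H2A ubiquitin ligase Rnf2 (-0.25, -0.33, -0.29 and -0.16). Over all tested genes 17.0% were higher and 14.2% lower in this way. With GC content and length trends removed, the log2 fold changes of Cbx8, Phc1 and Ring1 were 0.12, 0.15 and 0.11. Those of Bmi1, Pcgf5, Mtf2 and Rnf2 were -0.11, -0.19, -0.12 and -0.00. Of 8 MAGE genes tested, none was called and Mageh1 was lower by the adjusted p alone (-0.29).

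Genes of housekeeping machines gave single calls in both directions. Of 82 cytosolic ribosomal protein genes, Rpl21 and Rpl19 were called higher (1.49-fold and 1.46-fold) and Rpl22l1 lower. The last, a variant of Rpl22, was 80.1 to 94.3 scaled TPM after saline, median 87.3, and 38.5 to 70.3 after cocaine, median 59.5 (1.52-fold lower, adjusted p = 0.000619, limma). By the adjusted p alone 33 were higher and 11 lower, and the median was 0.08. Over all tested genes 17.0% were higher and 14.2% lower in this way, and 1.07% and 1.01% were called. Of Rpl19's 31-base words 79.9% occur in other genes, mainly its pseudogenes.

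Of 88 nuclear-encoded oxidative phosphorylation genes, Atp5k, Cox6a2 and Atpif1, the inhibitor of the ATP synthase, were called higher, and Cox8b and the pseudogene Ndufb4c lower. Atpif1 was 35.4 to 41.8 scaled TPM after cocaine and 21.9 to 25.7 after saline, a 1.56-fold rise (adjusted p = 2.04e-07, limma). Cox8b was at most 1.72 scaled TPM in any library, and Ndufb4c shares all its 31-base words with Ndufb4. At the adjusted p alone 29 were higher and 17 lower, with a median of 0.05. Over all tested genes 17.0% were higher and 14.2% lower in this way, and 1.07% and 1.01% were called. None of 20 heat shock and chaperone genes was called, although 9 were higher and 1 lower by the adjusted p alone, among them Cryab (0.47), Hspb1 (0.37) and Hsp90ab1 (0.34), and of 21 cholesterol synthesis genes 3 were higher and 2 lower in this way, with none called.

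GC content moved with the fold change. By deciles of GC content of the longest GENCODE M21 transcript, the median log2 fold change went from -0.17 in the lowest decile to 0.12 in the highest and rose at each step. In the lowest decile 45.5% of the genes were lower by the adjusted p alone and 3.41% higher, and in the highest decile 1.59% and 33.7%. The called rises had a median GC content of 54.0%, called falls of 44.5% and all tested genes of 49.7%. Length showed less, with medians from 0.02 in the shortest to -0.03 in the longest decile.

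The GC difference was present in every library. The log2 level of the highest minus the lowest GC decile, each gene relative to its mean over libraries, was 0.097 to 0.276 in cocaine and -0.236 to -0.027 in saline libraries, without overlap (exact two-sided permutation test, p = 0.000666, adjusted p = 0.00117 over 7 measures). When smooth trends on GC content and length were removed from each library, 110 genes were called higher and 110 lower, of which 97 and 102 were among the main calls. The rises of Atp5k, Tmsb10, Chgb, Egr1 and Edf1 and the falls of Zfp488, Olfr613 and Rpl22l1 were called there too, whereas Mt1, Mt2, Per1, Arpc3, Stmn4 and Rpl19 fell under the fold minimum (log2 fold changes from 0.42 to 0.49) and Fos and Plin4 missed the adjusted p (0.0698 for both). Whether the GC content relates to the tissue or to the making of the libraries was not tested.

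**Figure D5:**
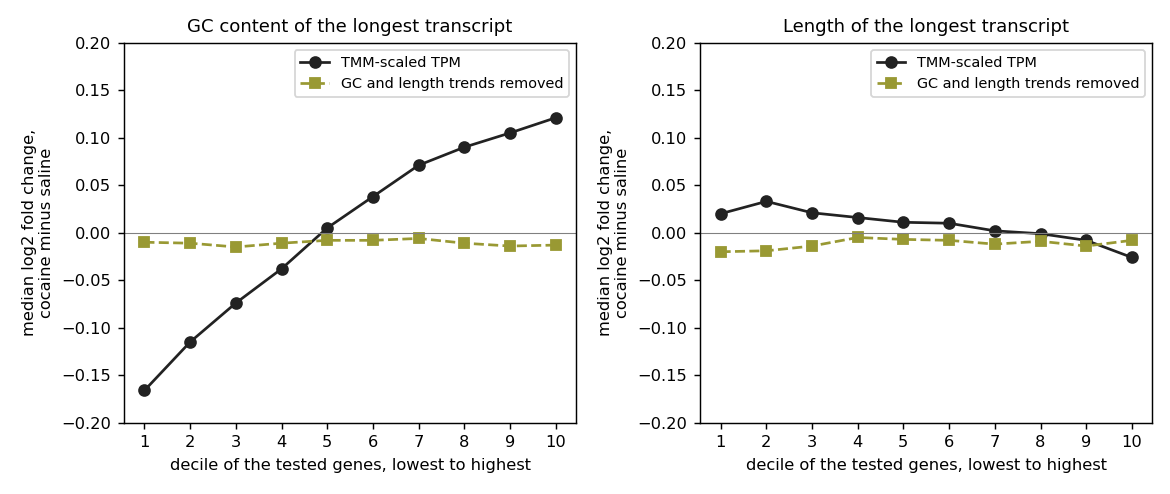
Median log2 fold change (cocaine minus saline) by decile of GC content (left) and length (right) of the longest transcript, for 13186 tested genes with a known transcript. Solid lines are TMM-scaled TPM and dashed lines are values after smooth trends were removed. The median climbs from -0.17 to 0.12 over the GC deciles and runs from 0.03 to -0.03 over the length deciles.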

How the data were processed

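Libraries were grouped by the treatment tag, and the members and gene lists were chosen with earlier results of these data known. Per the paper's methods, the authors mapped paired reads to GRCm38.p4 with STAR 2.5.3a, quantified them with Salmon, summarised them per gene with tximport and deposited TPM. In 2 tables, recorded with the unit other, the authors' TPM has a decimal comma and was read as such. TPM were divided by unweighted TMM factors (30% of log ratios and 5% of mean values trimmed), 0.5 was added and log2 taken. Genes with at least 1 TPM in 3 libraries were tested with limma 3.58.1 (R 4.3.3, intensity trend, treatment as the only term), checked on simulated data. Single values were compared by exact permutation over 3003 splits. Per the labels the samples were independent. Named were Maged1, Usp7, the 10 largest rises and falls and the 6 smallest p-values in each direction among called genes without overlap (transcript of at least 500 bases, mean of at least 5 TPM, no predicted symbol), the 5 largest of each direction among shorter ones, and members of 36 lists, called members first. GENCODE M21 (GRCm38) gave coordinates, length and GC content, found for 97.9% of tested genes. The tables hold symbols, such as Rn4.5s, that M21 lacks, so the annotation quantified may differ from M21, and length, GC content and shared words are those of M21. Alternatives covered scaling, pseudocount, filter, trend, genotype terms, label subsets and each library left out. A few genes of the lists are not reported here.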

Additional observations from a re-analysis of the deposited data

Results flagged for a closer look

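Within a treatment group, 1 library stood apart from the others in 12 of 138 sets of values examined for the named genes and the library measures, by the gap to the nearest library as a share of the group's range (Dixon's criterion at 95%), a rate that chance gives in about 1 of 20 sets. In cocaine libraries the gap was 0.644 of the range for Sf3a2 (1 low library, 12.7 scaled TPM) and 0.724 for Egr1 (1 high library, 17.5). For Mir3072 and Mir654 it was 0.682 and 0.903, in each case with a single cocaine library at 0. For Mir1966, Snora41, Mir6387 and Mir3062 the gap was 1.0, since 5 of the 6 cocaine libraries were listed at 0 and 1 was not. In saline libraries the gap was 0.596 for Plin4 (1 low library, 0.205), 0.579 for Snord14d (1 high library, 25.8), 0.652 for Snora75 and 0.791 for Mir6387 (1 library at 0 each).

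The change with cocaine differed between the titled genotypes, by the interaction term of limma, for 3 named genes. For Maged1 the difference of log2 fold changes, cKO minus control titles, was 2.26 (adjusted p = 6.76e-05), where the cocaine titles themselves go against Maged1. It was 4.67 for Avp (adjusted p = 0.0488) and -7.87 for Snora5c (adjusted p = 0.00208). For these genes too, a different response to cocaine cannot be told from a difference between libraries with high and low Maged1.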

How the results depend on the processing

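The numbers of genes higher and lower (144 and 136, of which 91 and 72 without overlap) moved by over 1.5 times in 5 settings. Called higher, called lower and the same without overlap came to 54, 2352, 14 and 1901 with TPM as deposited, and to 2291, 1907, 776 and 654 with no fold change minimum. With a mean of at least 5 TPM, which tests fewer genes, 90 and 74 were called, 44 of the latter without overlap. Subsets with fewer libraries separate more genes: 190 and 154 without overlap among libraries titled control, and 244 (all separated) and 163 (all separated) among those titled cKO. Leaving out each library in turn gave 125 to 161 higher and 116 to 158 lower, 89 to 121 and 64 to 90 without overlap. The titles share replicate numbers between groups. Deviations of same-numbered libraries had a mean correlation of -0.0248 over 12 pairs, against 0.00822 over the other 36, and only the number is shared. With a replicate block 142 and 137 were called, 96 and 75 without overlap. Among 2015 values of named genes, 148 lost their call, 1 gained one and 4 turned: Rmrp under quantile scaling (-0.00), and Maged1 (1.18), Snora5c (-1.68) and Snora75 (0.07) among libraries titled cKO. Among named genes, leaving out single libraries ended the calls of Arpc3 (0.48 without cocaine 4 or saline 1), Stmn4 (0.47 to 0.50), Rmrp (0.45 to 0.49), Rpl22l1 and Cox8b (-0.49 and -0.99 without cocaine 6), Mir3062, Snora5c and Snora75, besides Fos and Plin4. With no filter the call of Bc1 was lost at the same log2 fold change of 2.04. No called gene was called in the other direction under any of these settings. The cause was not tested. The depth of the libraries is unknown, so counting error at low TPM cannot be given.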

Other observations

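The genes named here were chosen after their values were seen, with no count of how many genes like them were tested. Of the neurofilament genes, Nefm and Nefh were called higher (log2 fold changes 0.76 and 0.56), while Nefl and Ina were not (0.15 and 0.28), and the groups overlapped for all 4 genes. Pcp4, a regulator of calmodulin abundant in thalamus, was 414 to 642 scaled TPM after cocaine and 215 to 397 after saline, and its relative Pcp4l1 was 79.3 to 91.8 and 43.7 to 76.1, both without overlap. The presynaptic genes Syn1 and Sncb each had a log2 fold change of 0.52. With GC content and length trends removed, the log2 fold changes were 0.63 for Nefm, 0.42 for Nefh, 0.78 for Pcp4, 0.39 for Syn1 and 0.38 for Sncb.

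Snrnp70, Sart1, Cwc15, Safb, Rsrc2 and Nsrp1, which have roles in splicing or bind nuclear RNA, were 6 of the 144 rises and did not overlap between the groups (log2 fold changes from 0.50 to 0.71). With GC content and length trends removed, the values for Cwc15, Rsrc2 and Nsrp1 were 0.63, 0.70 and 0.79, and those for Snrnp70 and Sart1 were 0.37 and 0.41. Cd84, Trat1 and Gimap8, which have roles in immune cells, were called lower without overlap (-0.67, -0.59 and -0.55), at levels under 4 scaled TPM, and the values were -0.51, -0.44 and -0.42 with those trends removed. Otp, a transcription factor of the hypothalamus, was called lower like Avp, with 0.183 to 0.772 scaled TPM after cocaine and 0.0624 to 3.79 after saline (adjusted p = 0.0495, limma).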
